A study of Rattus norvegicus with 6 samples.

Results

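A set of 10 genes of the bone morphogenetic protein (BMP) and activin pathway were followed in granulation tissue, the new tissue that fills a wound or an implant: the ligand genes Bmp2, Bmp4 and Inhba, the receptor genes Bmpr1a and Bmpr2, the follistatin genes Fst and Fstl1, and the ID genes Id1, Id2 and Id3. They were chosen by gene symbol. Each had 1 probe among the 22517 that covered 13336 named genes, and all 10 probes lay above the estimated background on every array. The 6 rats were of the Sprague-Dawley strain and 10 weeks old. Each carried a subcutaneous implant of uncoated cellulose, whose RNA was read on 1 Illumina BeadChip array. The day 1 group was rats 1, 2 and 3, sampled 24 hours after implantation. The day 3 group was rats 4, 6 and 7, sampled after 72 hours. Both groups carried the same implant, and neither had a coating. No tissue without an implant was analysed here, so every difference is between the 2 days. The arrays measured the whole implant, in which fewer cells of a type and less RNA per cell cannot be told apart.

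BMPs and activins are secreted dimers of the transforming growth factor beta superfamily. They bind pairs of type I and type II receptor kinases, which phosphorylate SMAD transcription factors: SMAD1, SMAD5 and SMAD9 for BMPs, SMAD2 and SMAD3 for activins. Follistatin binds activin, and some BMPs, outside the cell and keeps them from their receptors. The ID genes are classical BMP targets, and many growth factor signals also induce them. Their proteins lack a DNA-binding region and hold E proteins away from the E-box sites of genes.

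Of the 10 genes, 2 rose from day 1 to day 3, 2 fell and 6 did not pass the test. Fstl1 rose 3.44-fold and Bmpr2 rose 1.64-fold, whereas Id2 fell 2.42-fold and Id1 fell 1.83-fold. The test was limma's moderated test on log2 intensity over 12116 probes, with Benjamini-Hochberg adjustment and 0.05 as the threshold. Of all tested probes 12.6% rose and 9.95% fell, so 2 of 10 in each direction is little above what the arrays showed as a whole. The median difference was 0.07 over the 10 genes and -0.01 over all tested probes (day 3 minus day 1, log2). The count of falling genes changed when single arrays were left out: it was 0 without rat 2, and 1 without rat 1, rat 6 or rat 7. Falling probes went from 1206 to 515 without rat 2. The rats of the 2 days lay apart, with day 3 higher, for Fstl1, Bmpr2 and Id3, where 21.8% of all tested probes did so. They lay apart with day 3 lower for Id1 and Id2, against 18.0% of probes.

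**Figure D1:**
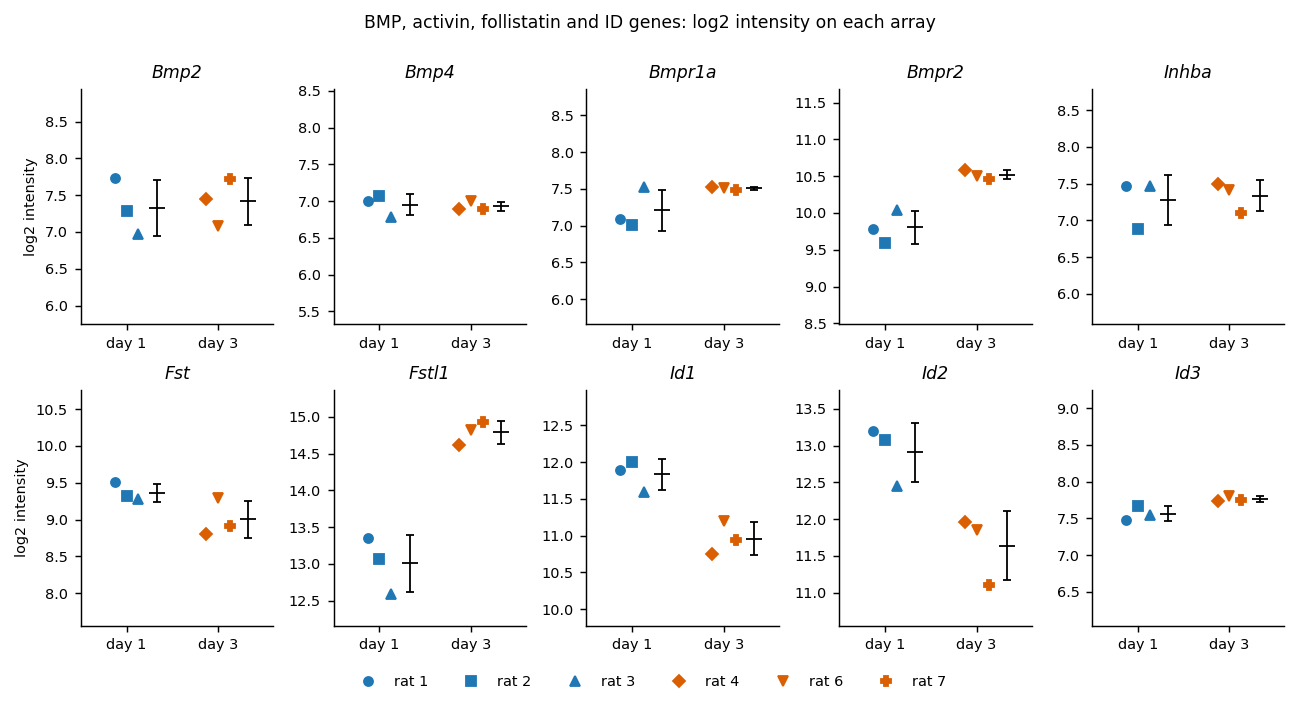
Log2 intensity (y axis, of equal span in every panel) of the 10 genes on each array, with day 1 rats in blue and day 3 rats in orange. Black marks show the mean and SD of the 3 rats of a day. The days do not overlap for Fstl1, Bmpr2, Id1, Id2 and Id3, with the widest gap for Fstl1. Rat 3 is the day 1 rat nearest to day 3 for Bmpr2, Bmpr1a, Id1 and Id2.

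Rat 3 stood apart from the other day 1 rats. Over tested probes it correlated with rats 1 and 2 at r = 0.956 and 0.963, where rats 1 and 2 correlated at 0.991 and the day 3 rats at 0.988 to 0.992. Each r runs over probes of 2 arrays, so it has no replicates behind it. The summed intensity of 5 tested adipocyte markers of 8 listed was 53165 in rat 3 and 7121 to 11363 in the other rats. That of 6 tested striated muscle markers was 11859 to 13027 in rats 2, 3 and 6 and 745 to 861 in rats 1, 4 and 7. Without rat 3 the probes that rose numbered 1954 in place of 1523, and those that fell 1845 in place of 1206. Dropping rat 2 left 799 rising and 515 falling probes. Dropping rat 6 left 777 and 565, dropping rat 7 left 875 and 589, and dropping rat 1 left 1154 and 714.

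No ligand gene among the 10 passed the test. Bmp2 (chr3:141264648-141275416, GRCr8) encodes a BMP that drives bone and cartilage formation. Its log2 intensity at day 1 was 7.73 in rat 1, 7.28 in rat 2 and 6.97 in rat 3, and at day 3 it was 7.45 in rat 4, 7.08 in rat 6 and 7.72 in rat 7. The 3 rats of each day covered almost the same range. The difference was 0.09 (SE 0.24, 95% interval -0.48 to 0.65, adjusted p = 0.849 by limma), and the interval is wide on both sides of 0.

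Bmp4 (chr15:22098191-22113145), whose protein is the closest relative of BMP2, was at 7.00, 7.07 and 6.79 in rats 1, 2 and 3, and at 6.89, 7.00 and 6.89 in rats 4, 6 and 7. Its difference was -0.02 (SE 0.11, interval -0.28 to 0.24, adjusted p = 0.914 by limma). These levels lay near the background limit, 6.42 on this scale, where a change in RNA shows only in part.

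Inhba (chr17:53787159-53810942) encodes the beta A chain, 2 of which form activin A. It was at 7.47, 6.89 and 7.47 in rats 1, 2 and 3 and at 7.50, 7.41 and 7.09 in rats 4, 6 and 7. One rat of each day was low, rat 2 at day 1 and rat 7 at day 3. The difference was 0.06 (SE 0.20, interval -0.41 to 0.52, adjusted p = 0.883 by limma).

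Of the 2 receptor genes, Bmpr2 rose. It encodes the type II receptor that binds BMPs (chr9:68685942-68801353). Log2 intensity was 9.78 in rat 1, 9.60 in rat 2 and 10.04 in rat 3, and 10.59 in rat 4, 10.51 in rat 6 and 10.46 in rat 7. Every day 3 rat was above every day 1 rat, and the day 3 rats differed little among themselves. The mean went from 9.80 ± 0.22 to 10.52 ± 0.06 (SD, n = 3 rats per day), a difference of 0.71 (SE 0.13, adjusted p = 0.0122 by limma). It passed in all 6 refits that left out 1 array, with adjusted p up to 0.0495, without rat 6.

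Bmpr1a, which encodes a type I receptor of BMP2 and BMP4 (chr16:9740751-9786861), was at 7.09 in rat 1, 7.01 in rat 2 and 7.52 in rat 3, and at 7.52, 7.52 and 7.48 in rats 4, 6 and 7. Rats 1 and 2 were low, and rat 3 was at the level of the day 3 rats. The difference was 0.30 (SE 0.15, interval -0.05 to 0.65) and did not pass, with adjusted p = 0.207. Without rat 3 it was 0.46 (SE 0.10) and passed, with adjusted p = 0.0132 by limma. The adipocyte markers were high in the same rat, and their part in its Bmpr1a value was not tested.

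Fstl1 showed the largest difference of the 10 genes, larger in absolute size than that of 97.6% of tested probes. Its protein, follistatin-like 1, is a secreted glycoprotein of mesenchymal cells with a follistatin-like domain (chr11:76400870-76454053). Log2 intensity was 13.36 in rat 1, 13.07 in rat 2 and 12.59 in rat 3, and 14.61 in rat 4, 14.82 in rat 6 and 14.93 in rat 7. The gap between the highest day 1 rat and the lowest day 3 rat was wider than the spread of either day. The mean went from 13.01 ± 0.39 to 14.79 ± 0.16 (SD, n = 3 rats per day), a rise of 1.78 (SE 0.20, adjusted p = 0.00279 by limma). It passed in all 6 refits, at 1.57 to 1.96. The day 3 levels approached the highest value of any probe, 15.47.

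Fst encodes follistatin itself (chr2:47856345-47863670). It was at 9.50 in rat 1, 9.31 in rat 2 and 9.28 in rat 3, and at 8.81 in rat 4, 9.29 in rat 6 and 8.91 in rat 7. Rats 4 and 7 were below all day 1 rats, and rat 6 lay between rats 2 and 3. The difference was -0.36 (SE 0.15, interval -0.72 to -0.004) and did not pass, with adjusted p = 0.14 by limma. Fst and Fstl1 therefore had differences of opposite sign, of which only that of Fstl1 passed.

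Both genes that rose did so beside the markers of several cell types. Of 8 tested fibroblast markers of 8 listed 7 rose, and their summed intensity was 50181 to 58121 at day 1 and 114971 to 131086 at day 3. Of 6 tested endothelial markers of 10 listed 5 rose, with sums of 5312 to 6838 and 10461 to 13939, while Cdh5 and Robo4 were below background on every array. Of 3 tested markers of smooth muscle cells and pericytes, of 8 listed, 2 rose, and Cnn1 was below background throughout. The sums were 3141 to 4795 at day 1 and 5453 to 8192.2 at day 3. Rgs5, 1 of the 2 that rose, was above background on 0 of 3 day 1 arrays and entered the test through its day 3 values. All 3 tested keratinocyte markers of 8 listed rose, at far lower sums of 258 to 283 and 386 to 445, with Krt1 below background on every array. At day 1 Krt10 and Tp63 were above background on 0 of 3 arrays and Pkp1 on 1. They entered the test through their day 3 values, so their rises carry little weight. Krt14, too dim to test, had means of 6.25 at day 1 and 6.21 at day 3. One of 2 tested mesothelial markers of 6 listed rose, and the sums were 235 to 406 and 1257 to 2796. The part of these cells in the rises of Fstl1 and Bmpr2 was not tested.

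Among the ID genes Id1 and Id2 fell, and Id3 did not pass. Id1 (chr3:161671525-161672691) was at 11.90 in rat 1, 12.003 in rat 2 and 11.60 in rat 3, and at 10.75 in rat 4, 11.19 in rat 6 and 10.94 in rat 7. All day 3 rats were below all day 1 rats, and rat 3 was the lowest of day 1. The mean went from 11.83 ± 0.21 to 10.96 ± 0.22 (SD, n = 3 rats per day), a difference of -0.87 (SE 0.16, adjusted p = 0.012 by limma). Of 6 refits 5 passed, and adjusted p was 0.0502 without rat 2.

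Id2 (chr6:47469162-47470995) was at 13.20 in rat 1, 13.08 in rat 2 and 12.45 in rat 3, and at 11.95 in rat 4, 11.86 in rat 6 and 11.10 in rat 7. The days did not overlap, but each had 1 rat well below the other 2, rat 3 and rat 7. The mean went from 12.91 ± 0.40 to 11.64 ± 0.47 (SD, n = 3 rats per day), a difference of -1.27 (SE 0.29, adjusted p = 0.0233 by limma). Only 2 of 6 refits passed. Adjusted p by limma rose to 0.0677 when rat 1 was left out, to 0.0864 for rat 2, to 0.0592 for rat 6 and to 0.0546 for rat 7, and the difference stayed between -1.50 and -1.01.

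Id3 (chr5:153656253-153657860) was at 7.47, 7.67 and 7.54 in rats 1, 2 and 3, and at 7.73, 7.81 and 7.75 in rats 4, 6 and 7. Every day 3 rat was above every day 1 rat, but by little. The difference was 0.20 (SE 0.10, interval -0.03 to 0.43, adjusted p = 0.199 by limma), of the opposite sign to Id1 and Id2. Whether Id3 differed from Id1 and Id2 in its change was not tested.

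**Figure D2:**
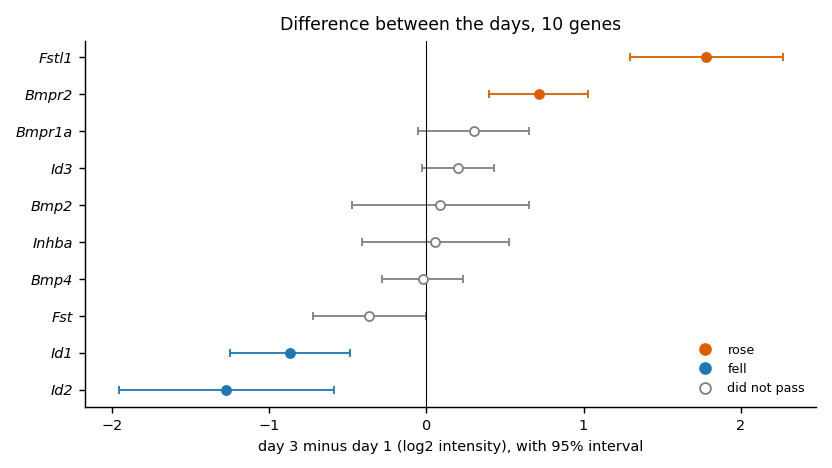
Difference in log2 intensity, day 3 minus day 1 (x axis), for the 10 genes with the 95% interval of the limma fit. Filled points passed the adjusted threshold. Fstl1 at 1.78 and Id2 at -1.27 are the extremes, and 6 open points lie between -0.36 and 0.30.

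The falls of Id1 and Id2 went with those of granulocyte and mast cell markers. All 6 tested neutrophil markers of 8 listed fell, and their summed intensity was 15240 to 23448 at day 1 and 3755 to 7020 at day 3. All 6 tested mast cell markers of 8 listed fell too, with sums of 4804 to 8182 and 1103 to 1795, while Mcpt1 and Kit were below background on every array. Of the 6, Fcer1a was above background on 3 of 3 day 1 arrays but on 1 of 3 day 3 arrays. It entered the test through its day 1 values, so its fall carries little weight. The mast cell sum was lowest in rat 3 among day 1 rats through Hdc, the enzyme that makes histamine, at 10.52 there and at 12.50 and 12.16 in rats 1 and 2. The other 5 mast cell markers were highest in rat 3 among day 1 rats, the one in which Id1 and Id2 were lowest. The neutrophil sum was 23448, 20883 and 15240 in rats 1, 2 and 3, and 5509, 7020 and 3755 in rats 4, 6 and 7. Within each day this sum was lowest in the rat with the lowest Id2, rat 3 and rat 7. S100a8, the brightest of the 6 with a day 1 mean of 13.74, was lowest in those rats, as were Csf3r and Camp. The other markers differed: at day 1 Mmp8 was lowest in rat 2 and Cxcr2 in rat 1, and at day 3 Mmp9 was highest in rat 7. Id1 was lowest in rat 3 at day 1 but in rat 4 at day 3. Macrophage markers were mixed: of 5 tested of 8 listed, 1 fell and 2 rose. Their sums were 14395 to 19825 at day 1 and 7844 to 13606 at day 3. Cd14, with a day 1 mean of 13.74 where C1qa was at 10.08, made up most of the day 1 sums. The median difference of the 5 markers was 0.43, opposite in sign to the change of the sums. Cd14 differed by -1.97, C1qa by 1.69 and Cd163 by 0.88. The part of all these cells in the falls was not tested.

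The stretches upstream of the ID genes are shown because Id1 and Id2 fell together while Id3 did not. They hold the 200 bases before the start of each gene as RefSeq annotates it on GRCr8, read 5′ to 3′ on the strand of the gene. Capitals mark GTCT, the short SMAD-binding box, on either strand, where it reads AGAC on the other.
Id1, chr3:161671325-161671524, plus strand: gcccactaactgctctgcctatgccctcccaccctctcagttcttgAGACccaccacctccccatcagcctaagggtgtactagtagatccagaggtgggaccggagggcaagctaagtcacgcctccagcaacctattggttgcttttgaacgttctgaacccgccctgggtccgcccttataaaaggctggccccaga
Id2, chr6:47470996-47471195, minus strand: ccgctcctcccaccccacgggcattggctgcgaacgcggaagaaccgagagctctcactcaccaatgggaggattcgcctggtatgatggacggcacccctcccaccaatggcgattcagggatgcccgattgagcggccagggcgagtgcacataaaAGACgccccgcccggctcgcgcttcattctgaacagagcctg
Id3, chr5:153656053-153656252, plus strand: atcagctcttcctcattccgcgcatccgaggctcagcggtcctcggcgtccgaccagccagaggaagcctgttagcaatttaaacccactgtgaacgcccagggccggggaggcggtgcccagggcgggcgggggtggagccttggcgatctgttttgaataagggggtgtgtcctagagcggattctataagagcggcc
Id1 and Id2 each held 1 match to GTCT, 154 and 42 bases upstream, and Id3 held 0. Fstl1, which rose, and Bmpr1a, which did not pass, each held 2 matches in their 200 bases, so the box was not particular to the genes that fell. Of the 20890 genes whose 200 upstream bases RefSeq's promoter entry held in full, 76.8% had a match. The GC-rich element GGCGCC of BMP-responsive genes had 0 matches in the 3 ID gene windows and was in 6.41% of all. Only these 200 bases were searched, so an element further upstream would not be seen. The E-box CANNTG also had 0 matches in the 3, against 58.2% of all. A match is a run of letters and was not tested as a binding site. Of the 10 genes, 8 had a promoter entry and 5 had the full window.

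Other genes of the pathway were taken from lists arranged by role, with 94 genes, of which 74 had a probe and 47 were tested. Of these 9 rose, 3 fell and 35 did not pass, with a median difference of 0.06. That is 19.1% and 6.38% of the tested genes, beside 12.6% and 9.95% of all tested probes. The count of rising genes was 3 when rat 2 was left out and 4 when rat 6 or rat 7 was. The count of falling genes was 1 when rat 2, 4, 6 or 7 was left out, and 6 when rat 3 was. Counts by role, given below, rest on 2 to 9 tested genes per list. Beside each of them stand the same shares of all tested probes, 12.6% rising and 9.95% falling.

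Of 9 tested BMP and GDF ligands 0 passed the limma test, and the 2 with the highest signal were Gdf1 and Gdf15. Gdf15, a stress-induced member of the superfamily, was at 9.76, 9.90 and 9.13 in rats 1 to 3 and at 8.86, 9.05 and 8.16 in rats 4, 6 and 7. The days lay apart, but the difference of -0.90 (SE 0.29) missed the threshold with adjusted p = 0.0689. Without rat 3 it passed, with adjusted p = 0.0137 by limma. Gdf1, which shares a transcript with Cers1 in mammals so that its probe may read both, differed by -0.07 (SE 0.14). Of the 2 tested activin-type genes, Inha, the inhibin alpha chain, differed by -0.16 (SE 0.15) and Nodal by 0.10 (SE 0.09), and neither passed.

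Of 9 tested receptors and co-receptors 3 rose and 0 fell. Bambi, a pseudoreceptor that lacks the kinase and dampens signalling, was at 8.40, 7.91 and 7.81 in rats 1 to 3 and at 8.73, 8.73 and 8.98 in rats 4, 6 and 7. It rose by 0.78 (SE 0.18, adjusted p = 0.0235 by limma), but passed in only 2 of 6 refits. Leaving out rat 2, 4, 6 or 7 ended the call, with adjusted p up to 0.0869 by limma. Acvrl1, the type I receptor of endothelial cells for BMP9, rose by 0.48 (SE 0.12, adjusted p = 0.0298 by limma), beside the endothelial markers above. It too passed in 2 of 6 refits, and missed without rat 1, 2, 6 or 7, at up to 0.108. Rgma, a BMP co-receptor, was above background on 2 of 3 day 1 arrays and rose by 0.55 (SE 0.16, adjusted p = 0.0466 by limma). Its rise was 0.47 once dim values were raised to the background limit. It passed in 1 of 6 refits, that without rat 3, and adjusted p was 0.15 without rat 6.

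Acvr1c, the type I receptor ALK7 of adipose tissue, is named after its values were seen. It was at 9.85 in rat 3 and at 6.31 to 6.74 in the other 5 rats. Its difference was -0.97 (SE 0.91) and 0.19 (SE 0.15) without rat 3, and it passed in neither fit. It was high in the rat with high adipocyte markers, whose part was not tested. Acvr1, a type I receptor for BMPs also named after its values were seen, lay apart between the days with a difference of 0.41 (SE 0.14, adjusted p = 0.0785 by limma). It passed when rat 3 was left out, at 0.53 with adjusted p = 0.0131, and with array weights, with adjusted p = 0.0117 by limma.

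Of 9 tested secreted antagonists and modulators 3 rose and 1 fell. Nbl1, a DAN family protein that binds BMPs, had the largest rise of the listed genes. It was at 8.83, 8.43 and 8.29 in rats 1 to 3 and at 10.20, 10.44 and 11.51 in rats 4, 6 and 7. Rat 7 was well above the other day 3 rats, and all day 3 rats were above all day 1 rats. The rise was 2.21 (SE 0.35, 4.61-fold, adjusted p = 0.00728 by limma) and passed in all 6 refits.

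Nog encodes noggin, which binds BMPs and blocks their receptor sites. It was at 7.42, 7.25 and 7.20 in rats 1 to 3 and at 6.87, 6.82 and 6.85 in rats 4, 6 and 7, a fall to near the background limit. The difference was -0.44 (SE 0.10, adjusted p = 0.0226 by limma), and only 1 of 6 refits passed. Nbl1 and Nog, both BMP antagonists, thus changed in opposite directions.

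Chrd, the BMP-binding protein chordin, was above background on 1 of 3 day 1 arrays and on all day 3 arrays. It rose by 0.93 (SE 0.25, adjusted p = 0.0397 by limma), or by 0.70 once dim values were raised to the background limit. It passed in 2 of 6 refits and missed without rat 1, 2, 6 or 7, where adjusted p reached 0.129 by limma. Tsku, a secreted leucine-rich protein that binds BMPs, rose by 0.74 (SE 0.17, adjusted p = 0.0229 by limma) and passed in 3 of 6 refits, with up to 0.0781 when rat 2, 6 or 7 was dropped. Grem1 and Fstl3, named after their values were seen, did not pass. Grem1, gremlin, differed by 0.35 (SE 0.19), and Fstl3, an activin-binding relative of follistatin, by -0.26 (SE 0.17). Bmp1, which despite its name is a protease that cleaves chordin and procollagen, rose by 0.61 (SE 0.12, adjusted p = 0.0135, 0.055 without rat 2), 1 of 3 tested processing proteases to pass.

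Among 7 tested SMADs and regulators 1 rose and 2 fell. Smad1, a SMAD activated by BMP receptors, was at 8.25, 8.06 and 8.17 in rats 1 to 3 and at 9.29, 9.44 and 9.48 in rats 4, 6 and 7. The days were far apart and each was tight. The rise was 1.24 (SE 0.10, 2.37-fold, adjusted p = 0.00128 by limma). Smad7, an inhibitory SMAD that BMP and TGF-beta signals induce, was at 7.99, 8.04 and 7.97 in rats 1 to 3 and at 7.10, 7.12 and 7.12 in rats 4, 6 and 7. It fell by 0.89 (SE 0.08, 1.85-fold, adjusted p = 0.0017 by limma), and the rats of a day differed by less than that SE. Both passed in all 6 refits. Tgif1, a SMAD corepressor, fell by 0.70 (SE 0.16, adjusted p = 0.0261) and passed in 1 of 6 refits, that without rat 3.

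Of 9 tested genes listed as BMP targets beside the 10, Bambi rose, Smad7 fell and 7 did not pass. Bambi and Smad7 are also counted above. The 7 had day means from 6.30 (Msx1, day 1) to 7.21 (Smad6, day 3). These levels lay near the background limit of 6.42, where a change in RNA shows only in part. Msx1 was above background on 0 of 3 day 1 arrays. Its days lay apart, with a difference of 0.31 (SE 0.10, adjusted p = 0.0648 by limma). Of the 3 E proteins that ID proteins bind, Tcf3, the source of E12 and E47, rose. It was at 8.59, 8.40 and 8.06 in rats 1 to 3 and at 9.21, 9.39 and 9.63 in rats 4, 6 and 7. All day 3 rats were higher, by 1.06 on average (SE 0.17, 2.08-fold, adjusted p = 0.00831 by limma), and all 6 refits passed. Tcf4 and Tcf12 did not pass, at 0.42 (SE 0.40) and -0.18 (SE 0.10).

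**Figure D3:**
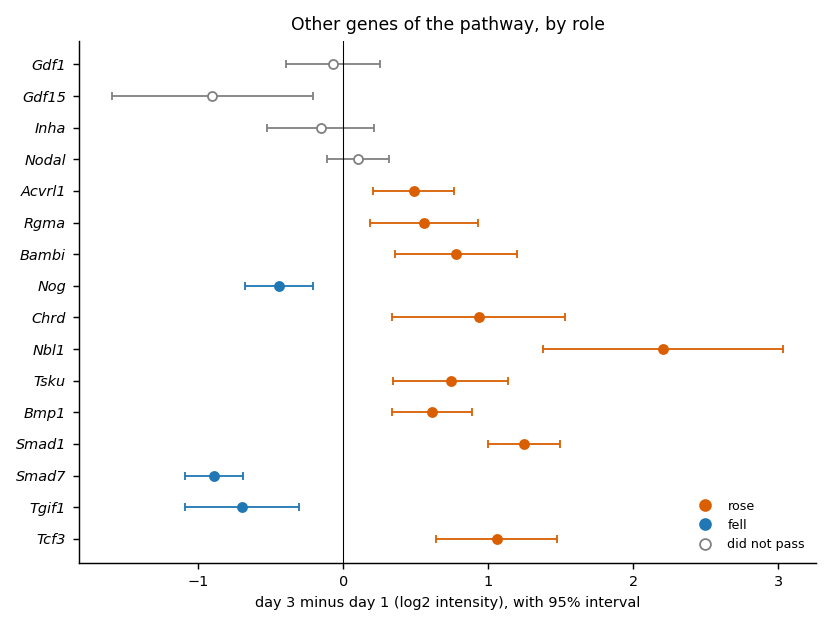
Difference in log2 intensity, day 3 minus day 1 (x axis), with the 95% interval of the limma fit for the 16 pathway genes named by rule, ordered by role from ligands to E proteins. Nbl1 at 2.21 and Smad1 at 1.24 are the largest rises, and Smad7 at -0.89 is the largest fall that passed.

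The genes whose profile over the 6 arrays was most like that of Fstl1 and of Id2 were found by the root mean square difference between log2 profiles, each centred on its own mean, over 6 rats. This measure takes in the difference between the days, so it describes these arrays only. For Fstl1 the nearest were Nxn, a thioredoxin-like protein (0.04), the S and G2 phase cyclin Ccna2 (0.05), Ndc80 of the kinetochore (0.09), the lysophosphatidic acid receptor Lpar1 (0.09) and Cdca8 of the chromosomal passenger complex (0.10). These 5 rose by 1.75 to 1.87. In all of them rat 3 was the lowest array, as for Fstl1.

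For Id2 the nearest were Oas1a, an oligoadenylate synthetase induced by interferon (0.07), Nampt, an enzyme of NAD synthesis (0.11), Pnrc1, a nuclear receptor coactivator (0.12), Arg1, the arginase of alternatively activated macrophages (0.12), and Bnip3, a mitochondrial protein induced by low oxygen (0.13). These 5 fell by 1.17 to 1.41, and of them Nampt passed in all 6 refits. Adjusted p by limma for the other 4 reached 0.051 (Arg1) to 0.109 (Bnip3) when rat 2 was left out. All 5 had their lowest value in rat 7, like Id2.

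**Figure D4:**
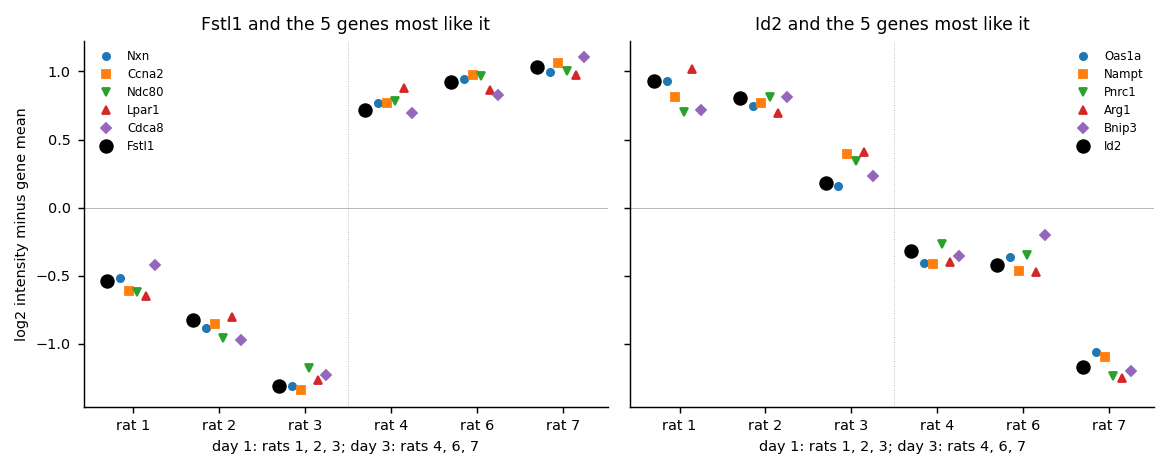
Log2 intensity minus the mean of each gene over 6 arrays (y axis) for Fstl1 and Id2 (large black points) and the 5 genes most like each (small coloured points), by rat (x axis). Points of a rat lie close together in both panels. Rat 3 is lowest for the Fstl1 group and rat 7 for the Id2 group.

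**Figure D5:**
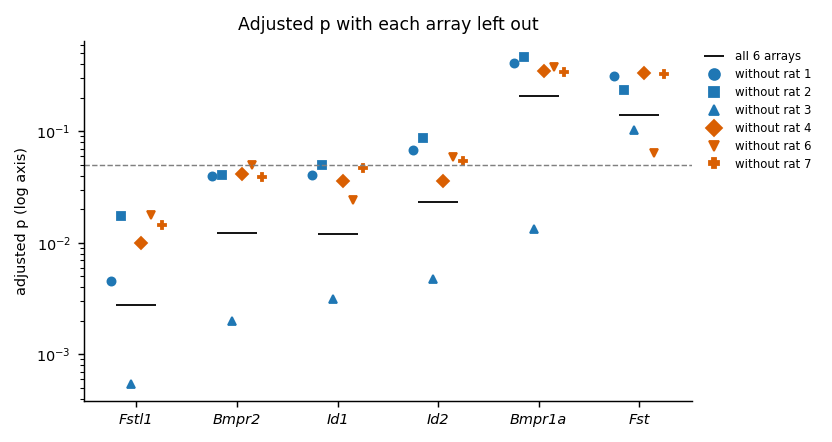
Adjusted p of the limma fit (y axis, log scale) for 6 genes with all arrays (black bars) and with each array left out (symbols). The dashed line is 0.05. Fstl1 and Bmpr2 stay below it in all 6 refits, Id1 lies just above it without rat 2, and Id2 lies above it in 4 refits. Bmpr1a drops below it without rat 3, and Fst stays above it throughout.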

How the data were processed

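The values used are the authors' deposited intensities on the linear scale, which the submitters' processing notes link to limma. They were already quantile normalised, since the arrays share one distribution: lowest 60.6, median 104, highest 45354. The other deposited table has 12 columns, 6 of signal and 6 of detection p-values, whose names match no label. It was not used here. In place of the detection p-values the design called for, background was estimated from the values used. Its mode was 86.2 and its limit 101 (95th percentile of log2 background, taken as normal). Probes above that limit on at least 3 of 6 arrays were tested. Intensities went through normexp (offset 50), quantile normalisation and log2, then lmFit and eBayes (limma 3.58.1, R 4.3.3) with a coefficient for day, two-sided, adjusted over all 12116 tested probes. Intervals at 95% come from the same fit. An exact permutation test of 3 against 3 cannot go below p = 0.1 and was not used. Pathway genes were named by rule: per list, up to 3 with the largest change past the threshold in each direction, or the 2 with the highest signal where 0 passed. The fit was tried on simulated data with independent normal noise of a common SD. Such data hold no array that stands apart as rat 3 does, so they cannot show how the fit handles one. Members and lists were chosen with earlier results of these data known. The number of arrays limits the precision, and the labels pair no rats. Platform symbols were updated to RefSeq through gene IDs.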

Additional observations from a re-analysis of the deposited data

How the results depend on the processing

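No paired analysis was possible because the rats of the 2 days share no number. Bmpr2, Fstl1, Fst and Id3 kept their direction and their side of the threshold under all 14 alternatives that could change them, among them no background correction (log2 of the deposited values), normexp with offset 16, cyclic loess, no filter, a stricter filter, a trend and robust variance model and array weights. The choice of probe could change no member, as each had 1. With array weights, which gave rat 3 a weight of 0.27, falling pathway genes numbered 6 and falling probes 1956, and Bmp2 turned to -0.19. With 1 array left out, Bmp2 ranged from -0.0898 to 0.2885, Bmp4 from -0.106 to 0.0356, Inhba from -0.1363 to 0.177, Inha from -0.2736 to 0.0059 and Acvr1c from -1.5755 to 0.1927. None of these 5 passed in any fit. Bmpr1a, Acvr1 and Gdf15 passed without rat 3 and with array weights (adjusted p = 0.017, 0.0117 and 0.0172 by limma). Rgma missed the threshold with cyclic loess (adjusted p = 0.0522) and with no filter (0.0587), as did Chrd with no filter (0.0557). Leaving out each array in turn, members that fell ranged from 0 to 2 and members that rose from 2 to 3. Rising pathway genes ranged from 3 to 11 and falling ones from 1 to 6. Rising probes ranged from 777 to 1954 and falling ones from 515 to 1845. The cause of these changes was not tested, and each refit also had fewer arrays. Levels near the background limit of 6.42, those of Bmp4 and Inhba among them, understate changes.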
